A study of Homo sapiens with 9 samples.

Results

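ATP-binding cassette (ABC) transporter genes were taken as the table rows whose gene symbol starts with ABCA, ABCB, ABCC, ABCD or ABCG followed by a number. These were 45 of 20812 genes. The cells were SKBR3, a long-established line from a human breast cancer with an amplified ERBB2 gene. A lipid reagent delivered siRNA at 10 nM to all cultures, and RNA was taken after 48 h. The 3 groups of 3 libraries received a non-targeting control siRNA, a first siRNA against PVRL4 (siRNA 1) or a second siRNA against PVRL4 (siRNA 2). The control duplex was bought from another supplier than both PVRL4 duplexes, so that supplier and target cannot be told apart in a comparison with control. No group without transfection was analysed here. Whether replicates were grown separately is not in the labels. P-values therefore reflect only how far these samples differ, and that spread may be technical. PVRL4 encodes nectin-4, a cell adhesion molecule, and the comparison asks how gene expression changes when its messenger RNA is reduced.

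ABC transporters are membrane proteins that use the energy of ATP to move substrates across a membrane. Several members of the B, C and G subfamilies export drugs and conjugated metabolites, and ABCB1, ABCC1 and ABCG2 are known for resistance of breast cancer cells to chemotherapy. Members of the A subfamily and ABCG1 move lipids, the D subfamily serves peroxisomes and lysosomes, and a set of B subfamily members sits in the inner membrane of mitochondria.

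Levels are given in RPM, the reads of a gene per 1000000 reads of its library. The kit amplifies 1 short amplicon per gene, so RPM is not scaled to gene length, and amplicons can differ in how well they amplify; the order of levels between genes is therefore a description of this assay. Library depth was 10017130 to 10707777 reads, which makes 1 read worth 0.0934 to 0.0998 RPM. A count of 0 allows a level of up to 0.280 to 0.299 RPM (3 reads, covering counting error only, since amplicon reads carry no molecular identifiers). Log2 changes are differences of log2(RPM + 1), a scale that understates changes of genes near 1 RPM. They were tested with limma across the 11158 genes that averaged 1 RPM or more in the 9 libraries, and a gene was called where its Benjamini-Hochberg adjusted p was under 0.05.

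The level of PVRL4 itself was 9.93, 7.86 and 11.6 RPM in the control libraries. It was 5.99, 4.36 and 4.67 RPM with siRNA 1 and 3.39, 2.91 and 2.58 RPM with siRNA 2, so all 6 libraries lay under the lowest control. The fall of 1.44 on the log2 scale with siRNA 2 passed the test (limma adjusted p = 0.00224), and the change of -0.84 with siRNA 1 did not (limma adjusted p = 0.0601; 0.0132 with the replicate number as a block). Summed levels of 20 type I interferon genes were 224 to 247 RPM in control, 1212 to 7568 RPM with siRNA 1 and 235 to 384 RPM with siRNA 2. Summed levels of 12 luminal breast cell markers were 10802 to 11620 RPM in control, 10567 to 11140 RPM with siRNA 1 and 9190 to 9767 RPM with siRNA 2. Of these 12 markers 10 had a mean of at least 1 RPM, while the epithelial cadherin gene CDH1 was at or near 0 in every library. Of the other cell types checked, 10 leukocyte markers summed to 4.83 to 12.2 RPM, with PTPRC at 0 but CSF1R at 4.06 to 10.7 RPM. The 10 fibroblast and endothelial markers summed to 9.54 to 15.7 RPM, with CDH5 at 4.20 to 9.88 RPM and COL1A1 at 3.53 to 6.35 RPM. The 9 hepatocyte markers summed to 0.19 to 5.04 RPM, with ALB at 0 to 3.10 RPM. Fewer cells of a type and less RNA per cell cannot be told apart in such bulk libraries.

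The promoter windows of neighbouring family members are shown because genes that sit side by side in the genome were read at very different levels. On chromosome 17 the genes ABCA8, ABCA9, ABCA6, ABCA10 and ABCA5 follow each other with no other protein-coding gene start between them, and on chromosome 16 ABCC12 lies beside ABCC11. Over the 9 libraries the chromosome 17 genes had 0, 0, 1, 10 and 2212 reads in that order, and the chromosome 16 pair had 1 read for ABCC12 and 523 for ABCC11. The windows are the 250 bases upstream of each annotated start, 5′ to 3′ on the strand of the gene, from RefSeq in build GRCh38.p14. Capitals mark the dinucleotide CG. These windows were chosen after the levels were seen.
ABCA5 (chr17:69327134-69327383, minus strand): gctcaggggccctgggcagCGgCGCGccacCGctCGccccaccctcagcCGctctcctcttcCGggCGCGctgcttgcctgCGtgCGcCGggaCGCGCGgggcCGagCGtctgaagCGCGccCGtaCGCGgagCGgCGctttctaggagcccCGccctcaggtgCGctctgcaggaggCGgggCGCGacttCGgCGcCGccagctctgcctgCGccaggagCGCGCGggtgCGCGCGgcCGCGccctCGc
ABCA10 (chr17:69244849-69245098, minus strand): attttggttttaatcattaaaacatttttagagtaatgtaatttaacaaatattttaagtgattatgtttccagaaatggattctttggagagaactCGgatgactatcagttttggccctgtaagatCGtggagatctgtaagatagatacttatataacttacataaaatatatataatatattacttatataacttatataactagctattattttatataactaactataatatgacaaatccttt
ABCA6 (chr17:69141896-69142145, minus strand): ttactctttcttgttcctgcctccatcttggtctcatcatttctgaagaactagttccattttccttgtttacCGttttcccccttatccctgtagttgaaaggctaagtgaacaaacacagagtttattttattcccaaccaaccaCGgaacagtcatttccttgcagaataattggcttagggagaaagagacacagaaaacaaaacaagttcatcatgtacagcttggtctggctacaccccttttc
ABCC11 (chr16:48247540-48247789, minus strand): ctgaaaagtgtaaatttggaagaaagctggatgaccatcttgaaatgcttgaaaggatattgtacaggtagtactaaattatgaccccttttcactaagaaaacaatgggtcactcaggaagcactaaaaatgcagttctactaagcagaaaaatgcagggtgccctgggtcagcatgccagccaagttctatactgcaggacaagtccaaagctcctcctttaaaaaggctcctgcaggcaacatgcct
ABCC12 (chr16:48155994-48156243, minus strand): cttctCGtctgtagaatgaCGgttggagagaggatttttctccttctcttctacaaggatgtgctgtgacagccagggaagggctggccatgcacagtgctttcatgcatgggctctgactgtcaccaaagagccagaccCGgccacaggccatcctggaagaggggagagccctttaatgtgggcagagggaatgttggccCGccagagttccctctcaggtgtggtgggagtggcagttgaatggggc
The window of ABCA5 held 42 CG and was 79.2% G or C, while those of its neighbours ABCA10 and ABCA6 held 2 CG each at 23.6% and 40.8% G or C. The pair on chromosome 16 did not follow that pattern. ABCC11, the gene with reads in all 9 libraries, held 0 CG, and ABCC12, with its single read, held 4.

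Of the 45 genes, 30 matched a promoter window in the RefSeq table, which holds 1 start per gene. CG reads the same on both strands, so 1 count serves both. The median was 16.5 CG in the 14 windows of genes that averaged 1 RPM or more and 5.5 CG in the 16 windows of lower genes, beside 10.0 CG over all 27305 windows of the table. At least 10 CG were found in 78.6% of the former, in 31.2% of the latter and in 51.7% of all windows. Exceptions went both ways: ABCA12 had 1 CG at a mean of 65.8 RPM, and ABCC4 had 42 CG at a mean of 0.354 RPM. ABCB1, without a read, had 1 CG in its window. These counts describe the letters of a window at an annotated start and do not show which start SKBR3 cells use. The windows of all genes were not split by level, so whether the difference is particular to this family was not tested. Of the 22 members that averaged 1 RPM or more, only 14 had a window. The windows of ABCD3 (34 CG) and ABCA9 (1 CG) lay 33258 and 18050 bases from the start of the gene.

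**Figure D1:**
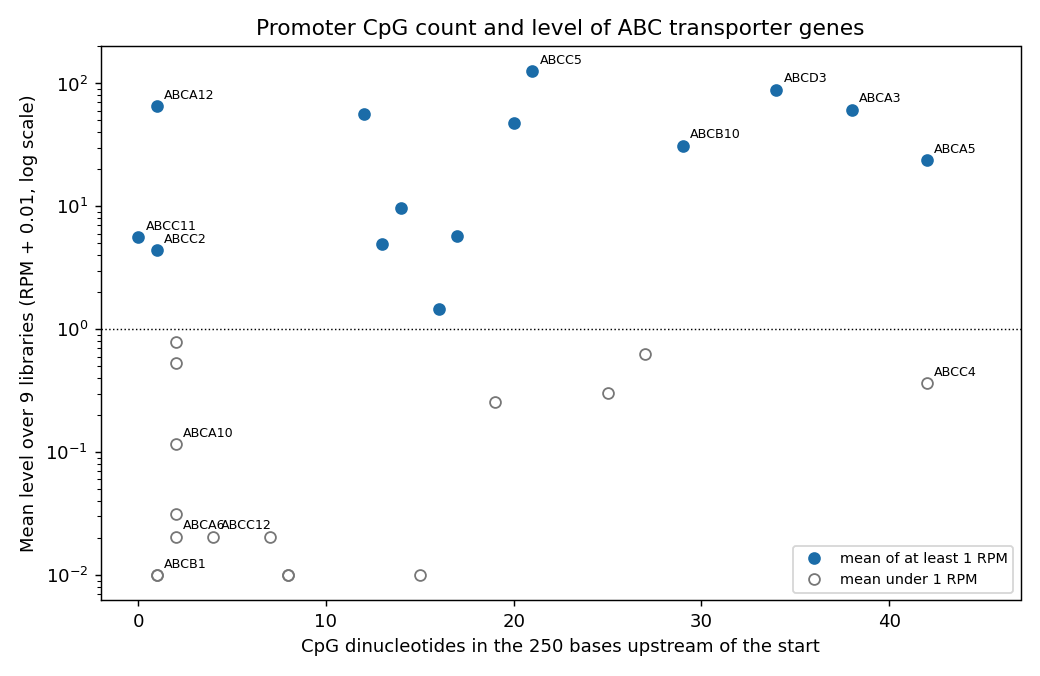
Number of CG dinucleotides in the 250 bases upstream of the start (x axis) against the mean level over 9 libraries (y axis, RPM + 0.01, log scale) for the 30 ABC transporter genes with a window. Filled circles are genes averaging 1 RPM or more (dotted line), open circles lower genes; ABCA12 reaches 65.8 RPM with 1 CG, and ABCC4 stays at 0.354 RPM with 42 CG.

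Of the 45 genes, 22 (48.9%) had a mean of at least 1 RPM, against 53.6% of all genes of the table, and were tested for change. None of these 22 owed its place to 1 group alone, since each had a mean of at least 1 RPM in every group. Of the 22, 2 lay above 100 RPM, 10 between 10 and 100 RPM and 10 between 1 and 10 RPM. Their median was 21.5 RPM, against 25.9 RPM for all tested genes. Just inside the limit were ABCA1 at 1.46 RPM and ABCB4 at 1.12 RPM, and just outside were ABCG2 at 0.773 RPM and ABCB9 at 0.623 RPM. The remaining 23 included 16 genes with at least 1 read and 7 with no read in any library: ABCA8, ABCA9, ABCA17P, ABCB1, ABCC9, ABCG5 and ABCG8.

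A few genes made up most of the reads of the family. The 3 highest genes, ABCC5 and ABCD3 among them, held 45.6% of the summed RPM of all members, and the 10 highest held 89.1%. The whole family summed to 821 ± 33.8 RPM in control, 804 ± 17.9 RPM with siRNA 1 and 818 ± 50.1 RPM with siRNA 2 (SD, n = 3 each), so the group means lay within the spread between libraries. Between libraries the levels moved as much as those of other genes: the coefficient of variation over all 9 had a median of 13.1% in the 15 members above 5 RPM and of 13.1% in the 9175 genes above 5 RPM. Of these members ABCC11 varied most, at 25.7%.

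**Figure D2:**
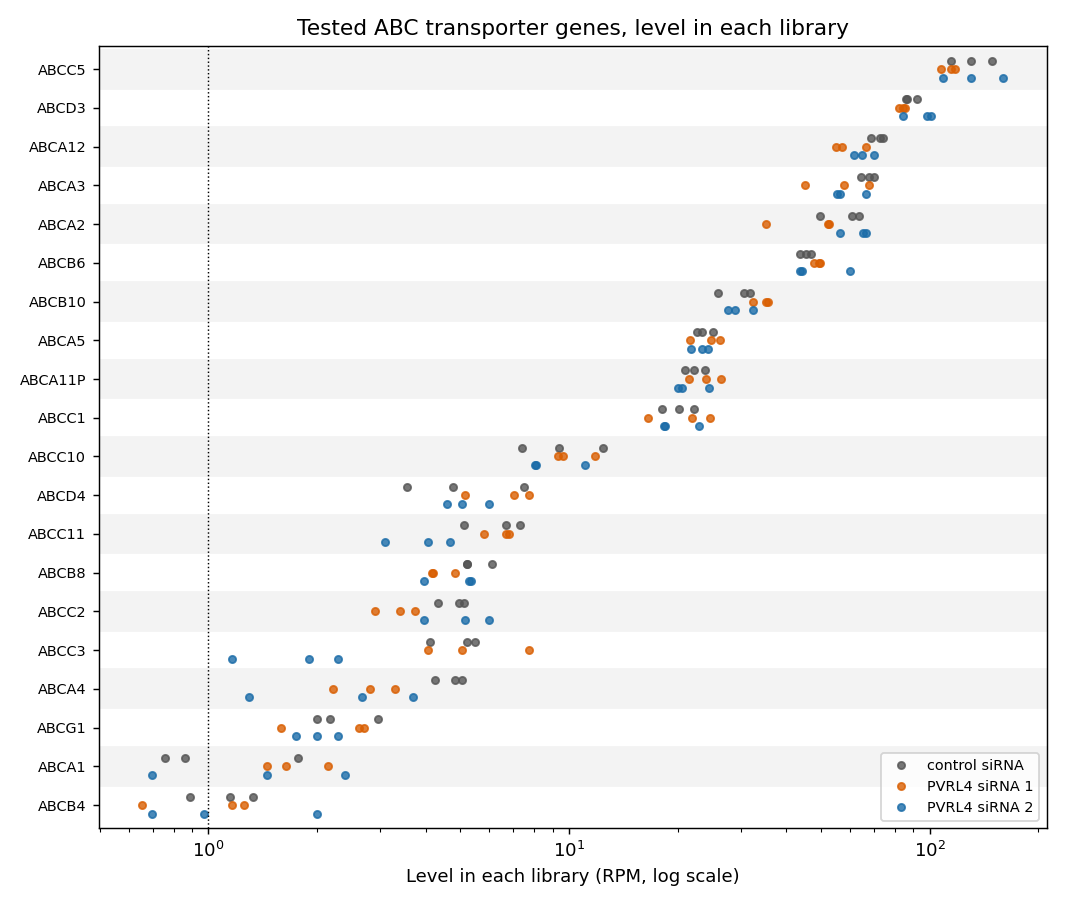
Level of 20 of the 22 tested ABC transporter genes (y axis, ordered by mean) in each library (x axis, RPM, log scale); each point is 1 library, grey for control siRNA, orange for siRNA 1 and blue for siRNA 2, and the dotted line marks 1 RPM. The siRNA 2 points of ABCC3 lie between 1.16 and 2.29 RPM, below all other points of that gene.

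The exporters of drugs and organic anions numbered 13, of which 6 were tested. Their summed level was 179 ± 21.2 RPM in control, 161 ± 6.55 RPM with siRNA 1 and 174 ± 27.1 RPM with siRNA 2 (SD, n = 3). ABCC5, an exporter of cyclic nucleotides, made up most of it, at 149, 130.2 and 115 RPM in control, 118, 107 and 114 RPM under siRNA 1 and 160.3, 131 and 109 RPM with siRNA 2. Its ranges overlapped in every pair of groups. Of the 6 tested exporters limma called 0 with siRNA 1 and 1, ABCC3, with siRNA 2, where 0.851% and 0.681% of all tested genes were called, and 5 of 6 did not pass with siRNA 2.

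Of the 3 exporters best known from drug resistance, ABCB1 and ABCG2 were at or near 0. ABCB1, which encodes P-glycoprotein, had no read in any of the 9 libraries, so a level above 0.280 to 0.299 RPM per library was not detected. ABCG2, the breast cancer resistance protein, had 0.859, 1.23 and 0.690 RPM in control, 1.54, 0.581 and 0.280 RPM under siRNA 1 and 0.898, 0.775 and 0.095 RPM with siRNA 2. These are 1 to 16 reads per library, and the gene was too low to be tested. ABCC1, which exports glutathione conjugates, was the best measured of the 3, with 20.2, 22.3 and 18.1 RPM in control. It had 16.6, 21.9 and 24.6 RPM with siRNA 1 and 18.4, 23.0 and 18.4 RPM with siRNA 2, and its groups overlapped throughout. The log2 change of ABCC1 was 0.04 with siRNA 1 (95% interval -0.30 to 0.39) and -0.02 with siRNA 2 (-0.37 to 0.32). Its sign changed with the scaling or with 1 library left out, so no direction is given.

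ABCC3, which carries glucuronide conjugates out of the cell, was the 1 member called by limma without the replicate block. It had 4.10, 5.50 and 5.22 RPM in control, 4.06, 5.04 and 7.75 RPM under siRNA 1 and 1.90, 1.16 and 2.29 RPM with siRNA 2. All 3 libraries with siRNA 2 lay below all 6 others, at 12 to 24 reads each against 42 to 83. With siRNA 2 the mean of 1.78 ± 0.572 RPM was 36.1% of the control mean of 4.94 ± 0.737 RPM (SD, n = 3). ABCC3 fell by 1.11 on the log2 scale with siRNA 2 (95% interval -1.61 to -0.60, limma adjusted p = 0.0495). It was lower by 1.23 than with siRNA 1 (log2 -1.23, interval -1.74 to -0.73, limma adjusted p = 0.0118), and with siRNA 1 against control the change was 0.12 (interval -0.38 to 0.63, limma adjusted p = 0.9997). The direction was the same in all 3 replicate numbers against control, with differences of -0.82, -1.59 and -0.92.

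In limma without the replicate block, the call of ABCC3 against control rested on a small margin. It was lost in edgeR on whole reads (adjusted p = 0.0882), under each other scaling (0.0683 to 0.0796) and without any 1 of the 3 control libraries, the 3 siRNA 2 libraries or siRNA 1 replicate 2 (0.0693 to 0.238). It was kept in DESeq2 (adjusted p = 0.0105) and, with the replicate number as a block, in limma (0.0050) and edgeR (0.0071). The limma fits with other scalings or with a library left out did not use the block. The log2 change of ABCC3 stayed between -1.24 and -0.94 with each of the 9 libraries left out in turn. Over the other settings run it lay between -1.46 and -0.55, so its size depended on the setting. Against siRNA 1 the call was kept in edgeR (adjusted p = 0.0173) and with the block (0.0010), and was lost with no filter on low values (0.142) and without siRNA 1 replicate 3 (0.0573), the library in which ABCC3 was highest. The summed luminal marker genes were lower in the 3 siRNA 2 libraries (9190 to 9767 RPM, against 10567 to 11620 RPM in the other 6). Limma, edgeR and DESeq2 called 0 of the 10 tested markers with siRNA 2 against control (0.681%, 0.52% and 1.42% of all tested genes). With the replicate block limma called 3 lower and edgeR 2 (2.95% and 2.28% of all tested genes). At an unadjusted limma p under 0.05, 5 of the 10 were lower (6.93% of all tested genes). In 4 of the 10 all siRNA 2 libraries lay below control (8.95%). Between siRNA 2 and siRNA 1 limma and edgeR called 0 lower (2.46% and 2.3%), and DESeq2 called 2 (3.07%). With the block limma called 5 lower there and edgeR 2 (6.52% and 5.4%). The part of these markers in the ABCC3 result was not tested.

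ABCC11, an exporter of nucleotide analogues that is known from apocrine glands and breast tissue, was also lowest with siRNA 2, at a smaller difference than ABCC3. It had 6.68, 7.29 and 5.12 RPM in control, 5.79, 6.68 and 6.82 RPM under siRNA 1 and 3.10, 4.07 and 4.67 RPM with siRNA 2. The siRNA 2 libraries again lay below all others. The log2 change of ABCC11 was -0.58 (interval -0.98 to -0.17) against control and -0.60 (-1.001 to -0.19) against siRNA 1, and neither passed the test (limma adjusted p = 0.272 and 0.122). With the replicate block the second passed (adjusted p = 0.0434). The gene overlaps LONP2 in RefSeq, and whether the counting used strand was not given in the sources used here.

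ABCC2, the canalicular exporter of conjugates in liver, was named after its values were seen. It had 4.96, 5.12 and 4.34 RPM in control, 2.90, 3.39 and 3.74 RPM under siRNA 1 and 5.99, 3.97 and 5.15 RPM with siRNA 2. The siRNA 1 libraries lay below all others, but the log2 changes of ABCC2 did not pass the test, at -0.42 against control (limma adjusted p = 0.774) and 0.47 for siRNA 2 against siRNA 1 (0.238). ABCC10, also an exporter of anticancer drugs, had 7.39 to 12.4 RPM over all 9 libraries with no separation of the groups. ABCC4 had a mean of 0.354 RPM, and ABCC6, ABCB11, ABCB5 and ABCC12 had 8, 2, 1 and 1 reads over all libraries.

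**Figure D3:**
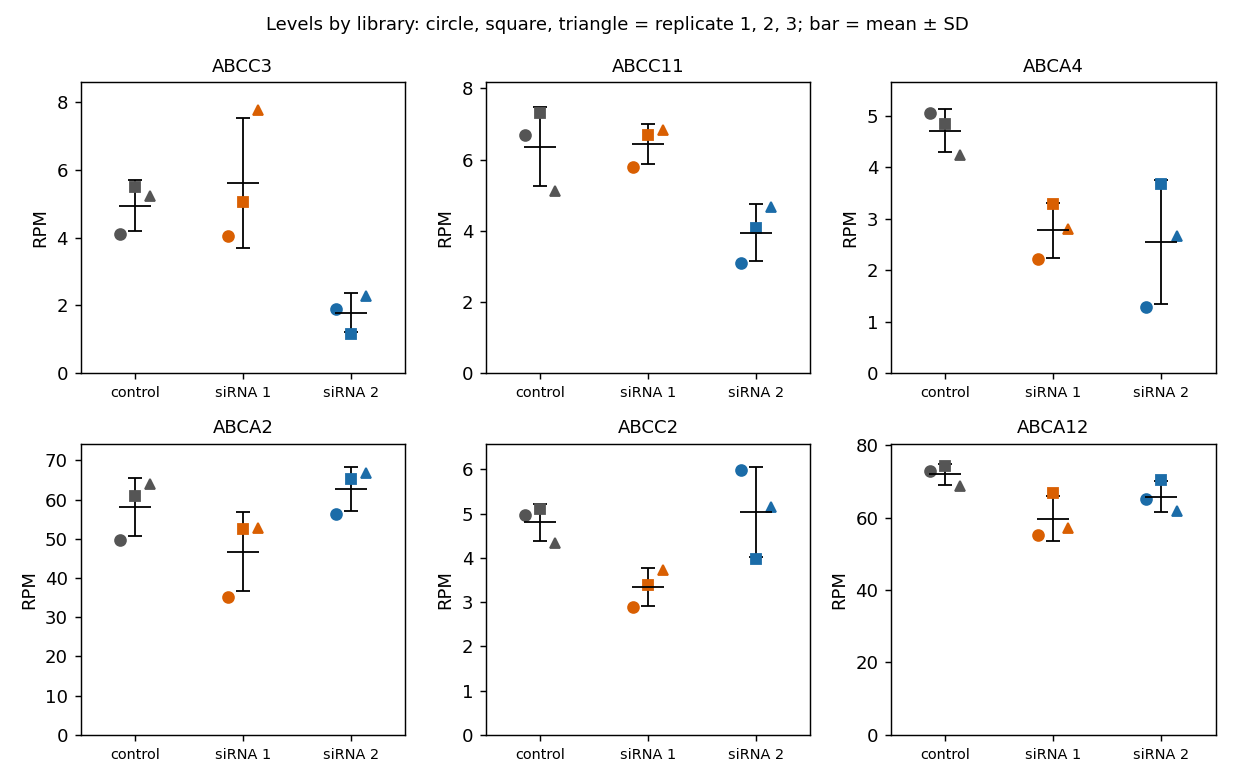
Level in RPM (y axis, from 0) of 6 members in each library by group (x axis); circle, square and triangle are replicates 1, 2 and 3, and the bars are the mean ± SD of 3 libraries. ABCC3 and ABCC11 are lowest in all 3 siRNA 2 libraries, ABCA4 is lower in all 6 PVRL4 siRNA libraries than in control, and the siRNA 1 values of ABCA12 lie below its control values.

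The lipid transporters numbered 17, of which 8 were tested. They summed to 231 ± 6.82 RPM in control, 197 ± 27.4 RPM with siRNA 1 and 220 ± 14.2 RPM with siRNA 2 (SD, n = 3). The median log2 change of the 8 was -0.17 with siRNA 1 and -0.08 with siRNA 2, beside 0.01 and -0.02 over all tested genes, and limma called 0 of the 8 in either comparison (0.851% and 0.681% of all tested genes). Before adjustment 2 and 1 of them were lower at p under 0.05, where 2.78% and 6.93% of all tested genes were lower, and edgeR and DESeq2 called 0 as well.

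ABCA12, which loads lipids into the lamellar granules of skin cells, had 72.8, 74.2 and 68.7 RPM in control, 55.1, 66.8 and 57.2 RPM under siRNA 1 and 65.1, 70.4 and 61.9 RPM with siRNA 2. The siRNA 1 libraries lay below the controls, and those with siRNA 2 overlapped both. The log2 change of ABCA12 with siRNA 1 was -0.27 (interval -0.50 to -0.04, limma adjusted p = 0.631). ABCA3, the phospholipid transporter of lung surfactant bodies, had 64.6 to 70.1 RPM in control, 45.2 to 68.0 RPM with siRNA 1 and 55.3 to 66.6 RPM with siRNA 2. Its log2 changes were -0.26 and -0.18, with intervals that held 0. RefSeq names 1 pseudogene of ABCA3 and 2 of ABCC6, so their reads are uncertain where a copy shares the amplicon.

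ABCA2, a transporter of late endosomes and lysosomes, had 49.7, 60.9 and 63.9 RPM in control. It had 35.2, 52.4 and 52.7 RPM with siRNA 1 and 56.4, 65.3 and 66.7 RPM with siRNA 2. The 2 siRNA groups did not overlap each other, and each overlapped control. The log2 difference of ABCA2 between siRNA 2 and siRNA 1 was 0.44 (interval 0.10 to 0.77) and did not pass the test (limma adjusted p = 0.174), but passed with the replicate number as a block in limma (0.0083) and edgeR (0.0051). Replicate 1 was the lowest library of ABCA2 in each group, which is the pattern that the block removes.

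ABCA4, best known as the retinoid lipid flippase of photoreceptors, was named after its values were seen. It had 5.06, 4.83 and 4.24 RPM in control, 2.22, 3.29 and 2.80 RPM under siRNA 1 and 1.30, 3.68 and 2.67 RPM with siRNA 2. All 6 PVRL4 siRNA libraries lay below all 3 controls, and ABCA4 was the 1 member of the 22 tested of which this held (1.22% of all tested genes). Its mean was 58.9% of control with siRNA 1 and 54.2% with siRNA 2. The log2 change of ABCA4 was -0.61 (interval -1.13 to -0.08) with siRNA 1 and -0.74 (-1.27 to -0.22) with siRNA 2, and neither passed the test (limma adjusted p = 0.637 and 0.283). With both siRNAs pooled it was -0.67 (interval -1.13 to -0.22, limma adjusted p = 0.99995).

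The cholesterol exporters were near the limit of the test. ABCA1, which loads cholesterol onto apolipoprotein A-I, had 0.859, 0.758 and 1.77 RPM in control, 1.64, 1.45 and 2.15 RPM under siRNA 1 and 0.699, 1.45 and 2.38 RPM with siRNA 2, with overlap between all groups. ABCG1, its partner in export to lipoprotein particles, had 1.59 to 2.96 RPM over all 9 libraries and overlapped throughout as well. Intervals for these 2 genes were wide: the log2 change of ABCA1 with siRNA 1 was 0.39 (interval -0.20 to 0.98) and that of ABCG1 -0.04 (-0.50 to 0.42). ABCA5, a lysosomal member, was steadier at 21.7 to 26.2 RPM. ABCB4, the phosphatidylcholine flippase of bile, had 0.654 to 2.00 RPM, ABCA13 had 0.095 to 1.49 RPM, and ABCA7 and ABCG4 had means of 0.292 and 0.247 RPM.

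The 4 mitochondrial members were all tested. They summed to 150 ± 6.06 RPM in control, 154 ± 2.18 RPM with siRNA 1 and 154 ± 11.5 RPM with siRNA 2 (SD, n = 3), and limma, edgeR and DESeq2 each called 0 of 4 in each comparison, also before adjustment in limma (0 at p under 0.05). Of all tested genes limma called 0.851% with siRNA 1 and 0.681% with siRNA 2 against control, 3.05% between the siRNAs and 0% with both pooled. Before adjustment the shares of all tested genes, higher and lower, were 3.26% and 2.78% with siRNA 1, 2.49% and 6.93% with siRNA 2, 5.05% and 10.1% between the siRNAs, and 1.58% and 2.11% with both pooled. ABCB6, linked to porphyrin transport, had 45.3, 46.8 and 43.8 RPM in control, 49.3, 47.9 and 49.8 RPM under siRNA 1 and 60.1, 43.8 and 44.2 RPM with siRNA 2. The highest value came from siRNA 2 replicate 1 alone, and without that library the change with siRNA 2 turned from 0.11 to -0.04. ABCB10, which takes part in heme synthesis, had 25.9 to 31.7 RPM in control, 32.4 to 35.7 RPM with siRNA 1 and 27.6 to 32.4 RPM with siRNA 2. Its log2 change with siRNA 1 was 0.23 (interval -0.04 to 0.49, limma adjusted p = 0.961). RefSeq names 3 pseudogenes of ABCB10, so its reads are uncertain where a copy shares the amplicon. ABCB8, also of the inner membrane, had 3.97 to 6.11 RPM.

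Of 5 peroxisomal and lysosomal members 3 were tested. ABCD3, which imports branched chain and dicarboxylic fatty acids, had 82.3 to 101 RPM over all libraries. ABCD4, the lysosomal vitamin B12 transporter, had 3.55 to 7.75 RPM and ABCB9, a lysosomal peptide transporter, had a mean of 0.623 RPM. ABCD2, a peroxisomal fatty acid transporter, had 1 read in all.

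Sulfonylurea receptors, which regulate potassium channels, were at or near 0: ABCC9 had no read and ABCC8 had 9 reads in siRNA 1 replicate 2 and 1 read in siRNA 1 replicate 3. Of the symbols that mark a pseudogene or carry no known role, ABCA11P alone was tested, at 20.1 to 26.4 RPM, and it overlaps the gene ZNF721. ABCC6P1, ABCC13 and ABCA17P had 4, 4 and 0 reads.

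**Figure D4:**
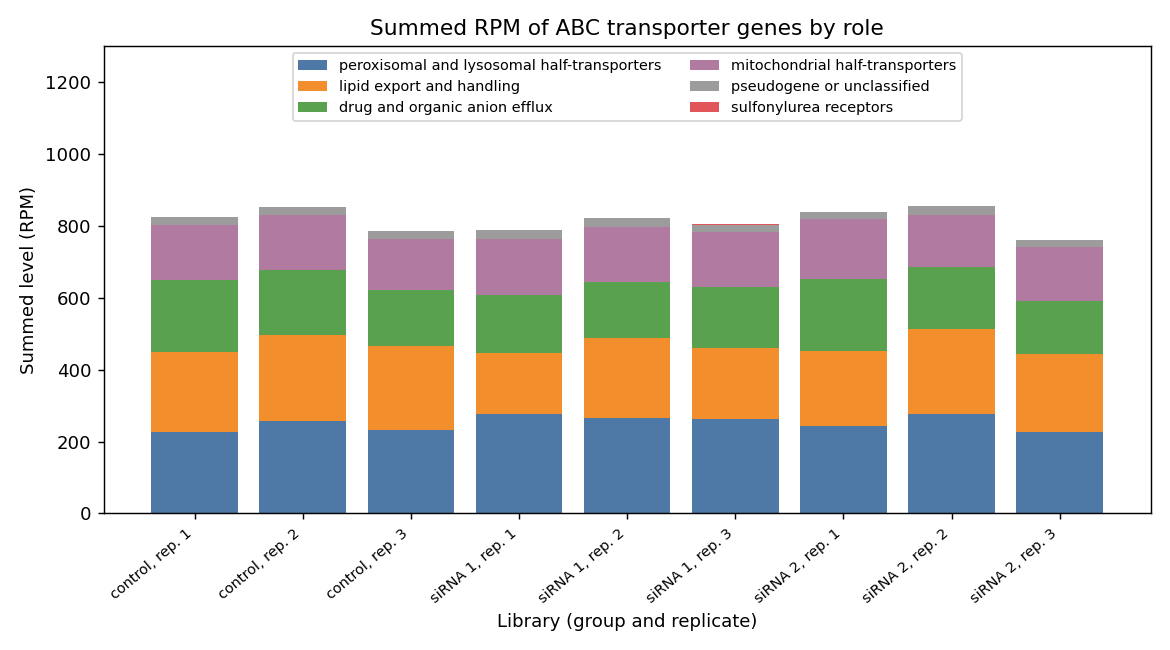
Summed level (y axis, RPM, from 0) of the 45 ABC transporter genes in each of the 9 libraries (x axis), stacked by role. The totals run from 761 to 854 RPM, and the groups overlap.

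With siRNA 1 limma called 0 of the 22 tested members against control, where it called 0.851% of all tested genes. The replicate block, edgeR and DESeq2 also called 0 members, where they called 1.85%, 0.968% and 1.44% of all tested genes (edgeR with the block 0 members and 1.96%). Before adjustment 1 member was higher and 3 were lower at p under 0.05, shares that were 3.26% and 2.78% over all tested genes.

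With siRNA 2 limma called 1 member lower than control, ABCC3, where it called 0.645% of all tested genes lower and 0.681% in either direction. The gene was also called with the replicate block in limma (3.41% of all tested genes) and edgeR (2.87%) and by DESeq2 (1.42%), while edgeR without the block called 0 members (0.52%). Before adjustment 0 members were higher and 3 lower, against 2.49% and 6.93% of all tested genes.

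Between siRNA 2 and siRNA 1 limma called 1 member lower, again ABCC3, against 2.46% of all tested genes lower and 3.05% in either direction. edgeR and DESeq2 called the same gene alone, against 3.08% and 4.7% of all tested genes. With the replicate block the count rose to 3 in limma, namely ABCC3, ABCC11 and ABCA2, and to 2 in edgeR, ABCC3 and ABCA2, where the block called 9.33% and 9.1% of all tested genes. Before adjustment 2 members were higher and 2 lower, against 5.05% and 10.1% of all tested genes. The members' share of 4.55% called lower in each of the 2 comparisons with siRNA 2 rests on ABCC3 alone.

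With both siRNAs pooled limma called 0 members and 0% of all tested genes, edgeR also 0 and 0%, and DESeq2 0 members where it called 0.0358% of all tested genes. Before adjustment 0 members were higher and 1 was lower, ABCA4, against 1.58% and 2.11% of all tested genes. Libraries of both siRNAs lay all above control in 0 members (1.04% of all tested genes). The comparisons with control share the 3 control libraries, so they are not independent of each other.

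The median log2 change of the 22 members lay close to that of all tested genes. It was -0.01 with siRNA 1 (all genes 0.01), -0.0091 with siRNA 2 (-0.02), -0.06 between the 2 siRNAs (-0.04) and -0.03 with both pooled (-0.0047). Libraries of siRNA 1 did not overlap the controls in 9 members. These were 3 higher (ABCB6 and ABCB10 among them; 13.6% of members, 6.4% of all tested genes) and 6 lower (among them ABCA4, ABCA12, ABCB8, ABCC2 and ABCD3; 27.3% and 5.59%). With siRNA 2 there were 0 higher (4.99% of all tested genes) and 3 lower (ABCA4, ABCC3 and ABCC11; 13.6% and 8.95%). Between siRNA 2 and siRNA 1 there were 3 higher (ABCA2 and ABCC2 among them; 13.6% and 7.04%) and 2 lower (ABCC3 and ABCC11; 9.09% and 12.6%). Some of these gaps were small, as for ABCD3 at 86.2 to 92.4 RPM in control and 82.3 to 85.4 RPM under siRNA 1. The interferon genes named above were higher in the siRNA 1 libraries, and their part in these counts was not tested.

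The precision of the assay sets what changes could be missed. On the log2(RPM + 1) scale the 95% interval of the change lay within -1 to 1 in 21 of 22 members with siRNA 1 and in 20 of 22 with siRNA 2. That scale understates changes of genes near 1 RPM, so these intervals do not exclude larger changes in RPM of the low members. For ABCA1 with siRNA 1 the log2 change was 0.39 on that scale and 0.62 in edgeR. For the 15 members above 5 RPM, none of which was called, changes lay between -0.33 and 0.32 with siRNA 1 and between -0.58 and 0.11 with siRNA 2. The widest reach of an interval among these 15 was 0.81 with siRNA 1, for ABCD4, and -0.98 with siRNA 2, for ABCC11.

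**Figure D5:**
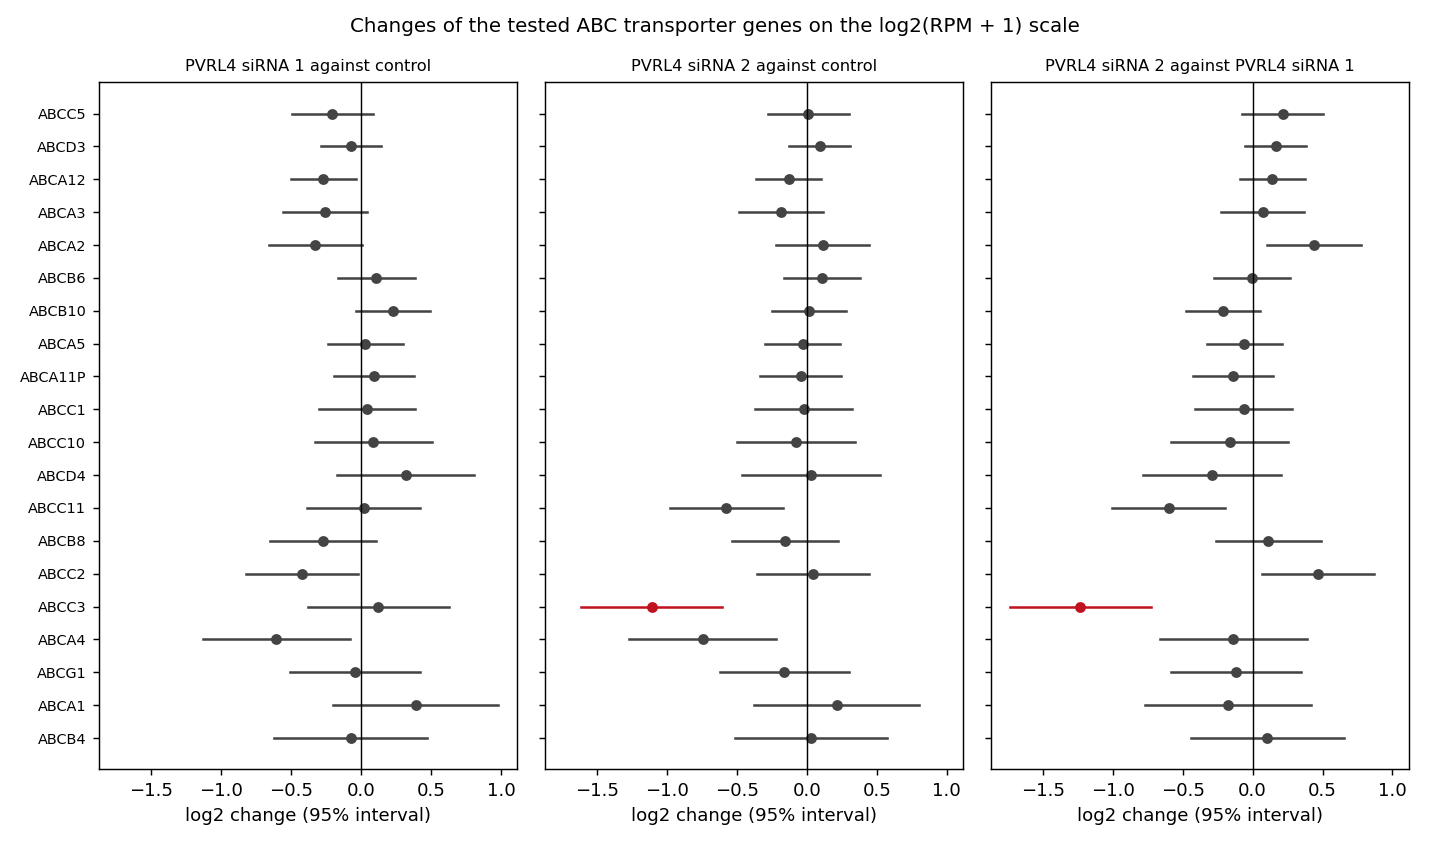
Log2 change on the log2(RPM + 1) scale (x axis) of 20 of the 22 tested ABC transporter genes (y axis, ordered by mean level) in 3 comparisons; points are limma estimates, bars their 95% intervals, and red marks an adjusted p under 0.05. ABCC3 is the only gene in red, at -1.11 for siRNA 2 against control and -1.23 for siRNA 2 against siRNA 1.

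ABC proteins whose symbols fall outside the rule were looked at beside the family. Of 7 such genes 6 were tested, and CFTR, the chloride channel, had no read. TAP1, a subunit of the peptide transporter of antigen presentation, rose with siRNA 1 by 1.50 on the log2 scale (limma adjusted p = 0.0378). It was the only one of the 6 that limma called against control with either siRNA, where 0.851% and 0.681% of all tested genes were called. TAP1 had 48.5, 52.9 and 41.3 RPM in control, 274, 75.4 and 120.1 RPM under siRNA 1 and 79.3, 67.4 and 67.5 RPM with siRNA 2. All libraries of siRNA 1 and of siRNA 2 were above control, with siRNA 1 replicate 1 far above the rest. Among the siRNA 1 libraries the summed interferon genes were highest in replicate 1 (7568 RPM) and lowest in replicate 2 (1212 RPM), and their part in the TAP1 result was not tested. TAP2, the other subunit, had 29.5 to 30.2 RPM in control, 29.3 to 69.3 RPM with siRNA 1 and 34.1 to 39.1 RPM with siRNA 2 and was not called. Its siRNA 2 libraries also lay above all controls. Of the 6 genes, 1 lay all above control with siRNA 1 and 3 with siRNA 2 (6.4% and 4.99% of all tested genes). ABCE1, a ribosome recycling factor without a membrane part, had a mean of 329.6 RPM, above every member of the family by this assay, and was not called either.

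Genes that regulate or serve the transporters changed in few cases. Of 15 regulators 12 were tested and limma called 0 against control with either siRNA (1 and 3 lower before adjustment; 0 by edgeR; 1 lower with siRNA 1 by DESeq2). Limma called 0.851% and 0.681% of all tested genes in these comparisons, and 2.78% and 6.93% were lower before adjustment. The shares called by edgeR were 0.968% and 0.52%, and DESeq2 called 0.475% lower with siRNA 1. PPARA, a nuclear receptor for fatty acids, had 10.5, 12.5 and 13.6 RPM in control, 5.99, 6.49 and 8.96 RPM under siRNA 1 and 12.1, 14.4 and 11.3 RPM with siRNA 2. Its siRNA 1 libraries lay below all others, and the difference between siRNA 2 and siRNA 1 of 0.75 passed the test (limma adjusted p = 0.0332). PPARA was the 1 of 12 regulators called there, where limma called 0.592% of all tested genes higher and 3.05% in either direction. Against control the change of PPARA with siRNA 1 was -0.71 (limma adjusted p = 0.109), and it passed with the replicate number as a block (0.0219). The xenobiotic receptors NR1I2 and NR1I3, known to induce drug exporters in liver, had no read. NR1H2, a liver X receptor that drives ABCA1 and ABCG1, had a mean of 20.9 RPM.

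Of 13 partner genes 10 were tested. PEX19, the chaperone that brings ABCD proteins to peroxisomes, was the 1 gene limma called, between siRNA 2 and siRNA 1 (log2 -0.43, limma adjusted p = 0.0487; edgeR 0.0704). In that comparison limma called 2.46% of all tested genes lower and 3.05% in either direction. Against control the log2 difference of PEX19 with siRNA 2 was -0.50. It did not pass in limma (adjusted p = 0.0608) or edgeR (0.0871) and passed in limma with the replicate block (0.0063), which called 2.95% of all tested genes lower. DESeq2 and edgeR with the block each called 1 of the 10 partner genes lower than control with siRNA 2 (1.22% and 2.28% of all tested genes). Between siRNA 2 and siRNA 1 they also called 1 each lower (3.07% and 5.4%). PEX19 had 77.3, 77.7 and 75.5 RPM in control, 70.7, 75.5 and 74.0 RPM under siRNA 1 and 51.5, 62.6 and 49.3 RPM with siRNA 2, so the siRNA 2 libraries lay below all others. Of 15 enzymes of glutathione and conjugate synthesis, which make substrates of ABCC transporters, 11 were tested. Limma, edgeR and DESeq2 called 0 of them in each comparison with control. Of all tested genes limma called 0.851% with siRNA 1 and 0.681% with siRNA 2, edgeR 0.968% and 0.52%, and DESeq2 1.44% and 1.42%. Before adjustment 1 enzyme was lower with each siRNA (limma p under 0.05), against 2.78% and 6.93% of all tested genes. These lists were written from textbook knowledge.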

How the data were processed

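Gene expression was measured in 9 SKBR3 libraries, 3 per group, for which 100 ng of total RNA went into Ion AmpliSeq amplicon libraries, per the labels' protocols. The authors deposited RPM values per gene. Per the submitters' processing notes the genome build was hg19. The aligner and counter are not given in the sources used here. Groups and replicate numbers came from the sample titles. Values were whole multiples of 1 read within 0.1 read in 100% of cases. Whole reads were recovered from these steps for the count tests. Libraries of a group differed by more than counting noise (chi-square per degree of freedom 8.90 to 23.9), so none was treated as a copy.

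limma 3.58.1 with a trended prior (R 4.3.3) was fitted to log2(RPM + 1) of the 11158 genes that averaged 1 RPM or more. The 3 groups shared 1 spread, and a fit of 2 groups pooled both PVRL4 siRNAs. Two-sided p-values were adjusted over all tested genes (Benjamini-Hochberg) against a threshold of 0.05. Scripts were tested on simulated data. edgeR 4.0.16 and DESeq2 1.42.0 were run on whole reads. Alternatives were pseudocounts of 0.1 and 5, no filter, a filter at 5 RPM, TMM, median-of-ratios and quantile scaling, a replicate block, the compared libraries only, and each library left out. The count test edgeR with the replicate block was added after the data were seen. The numbers in the titles pair the samples: deviations from group means correlated at 0.252 to 0.417 between libraries with the same number and at -0.340 to -0.0275 between others.

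The members, gene lists and tests were chosen with earlier results of these data known. Named members are ABCB1, ABCC1, ABCG2, ABCA1 and ABCG1, the 10 highest, every called member, the 3 largest changes each way above 5 RPM per comparison, and the 2 nearest to the filter on each side. Of the other lists up to 4 called genes are named by adjusted p, or up to 2 where none was called. Results of some members that these choices select are not reported here. Other genes were named after their values were seen. Gene neighbours and promoter windows came from RefSeq (GRCh38.p14), matched by Entrez gene identifier (44 and 30 of 45 members). Amplicon and siRNA sequences were not used here.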

Additional observations from a re-analysis of the deposited data

Results flagged for a closer look

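ABCC3 differed between the 2 PVRL4 siRNAs by a test of the difference itself: the log2 level with siRNA 2 was -1.23 relative to siRNA 1 (95% interval -1.74 to -0.73, limma adjusted p = 0.0118), with 3 of 3 siRNA 2 libraries (1.16 to 2.29 RPM) below 3 of 3 siRNA 1 libraries (4.06 to 7.75 RPM). Without siRNA 1 replicate 3, where ABCC3 was highest, the adjusted p was 0.0573, and with no filter on low values it was 0.142. Groups of 3 libraries were too small to look for single libraries that stand apart.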

How the results depend on the processing

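Of 820 alternative values for 40 log2 changes, 778 kept their direction and their side of the threshold, and 31 of the 40 changes kept their sign under every setting run for them. With siRNA 1 against control, and with both siRNAs pooled, the count of called members was 0 under every setting run. With siRNA 2 against control it fell from 1 to 0 with a pseudocount of 5, no filter, a filter at 5 RPM (which leaves ABCC3 untested), TMM, median-of-ratios and quantile scaling, only the libraries compared, and edgeR, and ranged from 0 to 1 with each library left out; adjusted p of ABCC3 ran from 0.0050 to 0.296 over these. Between the 2 siRNAs the count was 0 with no filter and with the filter at 5 RPM, 3 with the replicate block, 2 in edgeR with the replicate block, and 0 to 1 with each library left out. In limma the replicate block changed no other call of a member. In edgeR it also brought ABCC3 with siRNA 2 against control past the threshold (adjusted p = 0.0882 without the block and 0.0071 with it). Apart from the filter at 5 RPM, where fewer genes are tested, the cause was not tested.

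The sign of 9 of the 40 changes, none of them called, turned under at least 1 setting. ABCC1 with siRNA 2 was 0.0032 under TMM, 0.0056 under median-of-ratios and 0.023 under quantile scaling, 0.0074 in edgeR, 0.0099 in DESeq2 and 0.0013 in edgeR with the replicate block. ABCC11 with siRNA 1 was -0.054 under quantile scaling. With each library left out, changes with siRNA 1 ranged from -0.075 to 0.19 for ABCC1, -0.13 to 0.12 for ABCG1, -0.10 to 0.30 for ABCC3 and -0.11 to 0.11 for ABCC11. With siRNA 2 they ranged from -0.041 to 0.18 for ABCB6, -0.12 to 0.046 for ABCC1, -0.030 to 0.47 for ABCA1 and -0.067 to 0.18 for ABCC2, and with both pooled from -0.033 to 0.42 for ABCD4. Of the tested members, those near 1 RPM rested on the fewest reads, so counting error weighs most there. ABCA1 had 7 to 25 reads per library and ABCB4 had 7 to 21.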
